A study of Homo sapiens with 6 samples.

Results

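The nuclear genes for subunits of the respiratory chain were examined complex by complex in 6 RNA sequencing libraries of cells labelled MKN-45, an established line from a human gastric adenocarcinoma. Earlier results of these data were known when the members were chosen, but the rule used gene symbols alone and no measured values. It kept 85 of the 62700 genes in the deposited table as members. They comprised 37 genes of complex I, 4 of complex II, 9 of complex III, 17 of complex IV, 17 of complex V and ROMO1, which encodes a mitochondrial inner membrane protein and is no subunit of the chain. NDUFA4 was kept with complex I by its symbol, although its protein is now placed in complex IV, and COX7A2L, kept with complex IV, encodes a factor that joins complexes into supercomplexes.

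Of the 6 libraries, 3 were controls and 3 were labelled knockdown of NNMT, the cytosolic enzyme that methylates nicotinamide. All 6 were made from poly(A) RNA of the same line, 48 h after transfection, and 3 independent replicates were stated for each condition. The labels name both siRNA and shRNA for the knockdown, and they describe the controls both as receiving a non-targeting agent and as left without treatment. The agent and the control treatment are therefore not settled here.

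Each library held between 40558680 and 56067484 counted reads, and the members together took 0.438% to 0.549% of them. NNMT itself had 0, 8 and 12 reads in the 3 control libraries and 2, 8 and 14 in those labelled knockdown, so the groups overlapped and a reduction could not be seen at this level. For this reason the second group is called "labelled knockdown" throughout. The epithelial keratin genes KRT8, KRT18 and KRT19 were abundant, and the 11 gastric and intestinal markers were mixed. Of these, 7 passed the filter on low counts, with MUC6 at 26.0 to 82.9 on the counts-per-million scale (CPM), MUC5AC at 3.75 to 41.8 CPM and CEACAM5 at 0.293 to 26.4 CPM, while CDX1, CDX2 and GKN1 had no read in any library and HNF4A reached at most 0.0461 CPM. Each statement on bulk RNA below cannot separate fewer cells of a kind from less RNA per cell.

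The respiratory chain moves electrons from NADH and succinate to oxygen and stores the energy as a proton gradient across the inner mitochondrial membrane. Complex I takes electrons from NADH, complex II from succinate, complex III passes them to cytochrome c, complex IV hands them to oxygen, and complex V lets protons flow back to make ATP. Every complex except complex II is built from proteins of both genomes: the mitochondrial DNA supplies a few hydrophobic core subunits, and the nucleus supplies the rest together with the factors that assemble them. NRF1, the ETS family factor GABP and YY1 are known regulators of many of these nuclear genes.

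Because the members were read as a group that could vary together, the letters before their start sites are shown first. Promoter windows running from 250 bases before to 50 bases after a start were matched by symbol for 69 members in RefSeq (GRCh38.p14), using the window listed first for each gene. An NRF1-type core (GCATGCGC), an ETS-type core (CCGGAAG) and a YY1-type core (AAGATGGC) were searched on both strands. Stretches of 30 bases before that RefSeq start are printed 5′ to 3′ on the gene's strand, with the matched letters in capitals. ROMO1 and UQCRQ are shown as members whose groups of libraries did not overlap and that held the ETS-type core. Of the other members without overlap, NDUFA3 held only the YY1-type core and ATP5F1D had no matched window. NDUFA2, NDUFB10, NDUFC1, NDUFS8 and NDUFV2 held none of these cores. The remaining stretches are examples from each complex.
ROMO1: cCCGGAAGtgctgcccggcgctCCGGAAGc
UQCRQ: aatggtatctcCCGGAAGttacctcacgac
NDUFB7: gcctaaatgacCCGGAAGctgtgtctgact
COX8A: ccagctccagaaCTTCCGGccagcgcagcc
ATP5F1C: gggagcttcgGCGCATGCGCgctgaggcct
SDHD: agctgtgtttGCGCATGCGCgacgggtgtg
NDUFS6: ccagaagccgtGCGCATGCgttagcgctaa
ATP5PF: taggcgaagaaAAGATGGCggaggctgtgc

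These stretches lie at chr20:35699344-35699373 (plus strand) for ROMO1, chr5:132866577-132866606 (plus) for UQCRQ, chr19:14572072-14572101 (minus) for NDUFB7 and chr11:63974590-63974619 (plus) for COX8A. Those of ATP5F1C, SDHD, NDUFS6 and ATP5PF lie at chr10:7788145-7788174 (plus), chr11:112086753-112086782 (plus), chr5:1801350-1801379 (plus) and chr21:25735093-25735122 (minus). The counted annotation places some starts further upstream, so the stretches of ROMO1 and ATP5PF lie inside the gene as counted, and most of that of ATP5F1C does. ROMO1 held the ETS-type core in 2 copies within its 30 bases. In ATP5F1C and SDHD the whole run of capital letters reads the same on both strands. It holds the NRF1-type core in both orientations, at overlapping positions.

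The ETS-type core was the most frequent of the 3. It occurred in 21 of the 69 windows (30.4%), against 10.7% of 27305 RefSeq windows of the same length and 14.2% of the 15843 from protein-coding genes. The NRF1-type core occurred in 13 members (18.8%, against 3.27% and 4.26%) and the YY1-type core in 11 (15.9%, against 3.03% and 3.91%). At least 1 of the 3 cores was present in 35 members (50.7%), against 15.6% of all windows and 20.3% of those from protein-coding genes. Of the 11 members with the YY1-type core, 9 held it after the start, between positions 10 and 38. Of the 13 with the NRF1-type core, none held a match that began after the start, and the match in NDUFA8 ran across it. A match is a match of letters only, and binding was not measured.

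Levels within each complex were compared as TPM (transcripts-per-million), which divide the count by the gene's merged exon length in the table. In complex I the highest levels over the 6 libraries were those of NDUFS5, an accessory subunit, at 515 ± 48.8 TPM (SD, n = 6) and of NDUFB7, an accessory subunit of the membrane arm, at 508 ± 55.5 TPM. These 2 neighbours overlapped in range. The lowest was NDUFV2, an iron-sulphur subunit of the NADH-binding arm, at 2.25 ± 0.536 TPM, although NDUFV1, the flavin-carrying subunit it contacts, stood at 141 ± 8.47 TPM. Complex III was led by CYC1, the cytochrome c1 gene, at 380 ± 35.8 TPM, above UQCRH, the hinge subunit, at 274 ± 34.7 TPM, with ranges that did not overlap. UQCR11, a small accessory subunit, was lowest there at 12.5 ± 1.04 TPM. In complex IV COX7C led at 364 ± 50 TPM, and its range overlapped that of COX8A at 276 ± 42.5 TPM. ATP5F1B, the catalytic beta subunit of ATP synthase, reached 722 ± 106 TPM and was the highest of all members by TPM. Per kb of transcript it stood at 210 CPM, below COX7C at 258. ATP5MG, the g subunit of the membrane part, was the lowest of complex V at 11.4 ± 0.923 TPM, a value that rests on its 8358 merged exon bases: by CPM it stood at 22.9 and ATP5ME, the e subunit, was lower at 4.29.

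The 4 complex II genes differed by more than their spread. SDHC, a membrane anchor that binds haem, was highest at 160 ± 17.4 TPM, followed by SDHB, the iron-sulphur subunit, at 100 ± 6.53 TPM and SDHD, the other membrane anchor, at 45.4 ± 4.12 TPM. SDHA, the flavoprotein that oxidises succinate, was counted at only 8.36 ± 0.651 TPM. No pair of these ranges overlapped. The order by CPM was the same, but per length of the longest coding transcript SDHC came last, at 5.37 CPM per kb against 7.31 for SDHA, so the place of SDHC depends on the length used.

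The lowest TPM values in complexes I to III, and that of ATP5MG, came from genes whose coding sequence lies largely under exons of other annotated genes. Reads were counted without strand, and a read that touches 2 genes was not counted for either, so such genes can hold fewer counts than their transcripts gave. Of the coding bases of the longest GENCODE 29 coding transcript, 91.7% were shared with another gene in NDUFV2, 90.2% in SDHA, 100% in UQCR11 and 68.9% in ATP5MG. NDUFV2 had 36 to 85 reads per library, while NDUFV1, with none of its coding bases shared, had 6934 to 8906. Leaving out the 6 tissue-restricted isoforms of complex IV, the 16 members with at least 50% of coding bases shared had a median of 12.4 CPM (range 1.13 to 36). The 54 members with no shared coding base had a median of 59.7 CPM (range 13.9 to 387). The 9 members in between had a median of 27.2 CPM. Per kb of that transcript the medians were 10.7, 58.6 and 59.9 CPM for the most shared, the unshared and the in-between members, so on that scale the last 2 classes were close. For some members, SDHC and NDUFA1 among them, that transcript is longer than the merged exons of the counted annotation, so values per kb are approximate. NDUFA7 (100% shared, 37 to 63 reads), NDUFA9 (85.1%) and NDUFB8 (83.9%) were among the lowest of complex I; these 3 were picked after their values were seen. The main overlapping gene of NDUFV2, ENSG00000265257, had no read in any library, as had those of UQCR11 (ENSG00000267059), NDUFA9 and NDUFB8.

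Copies elsewhere in the genome add uncertainty. The 6 SDHA pseudogenes together held 14103 reads over the 6 libraries, against 4784 for SDHA, and the 1 NDUFV2 pseudogene held 1192, against 404 for NDUFV2. Over all members, 190 named pseudogenes held 19206 reads. Levels of these genes are therefore uncertain as amounts, and whether the same share of reads was lost in every library was not tested. The merged exon length also includes rare long exons: NDUFA10, with 19359 merged bases, was listed at 29.9 TPM although its 133 to 141 CPM exceeded those of most members.

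**Figure D1:**
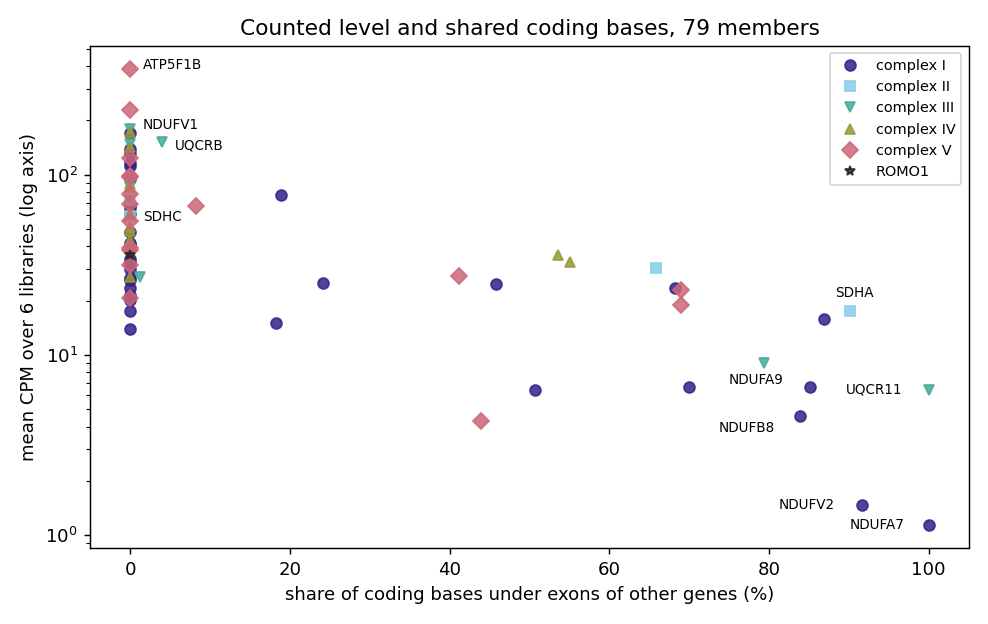
Mean CPM over the 6 libraries (log axis) against the share of coding bases lying under exons of other annotated genes, for 79 members marked by complex. Members with at least 50% shared lie at or below 36 CPM, and NDUFV2 and NDUFA7 lie lowest.

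The tissue-restricted isoforms of complex IV were mostly at or near 0, while their widely expressed partners were abundant. COX6A2, the heart and muscle form, had no read in any library, which allows at most 3 reads, or 0.0535 to 0.0740 CPM. COX6A1, its partner, stood at 32.4 to 41.8 CPM. COX4I2, the lung-enriched form, had 0 to 3 reads per library (0 to 0.0756 CPM), against 129 to 155 CPM for COX4I1. COX8C, a testis form, had 0 to 11 reads (0 to 0.238 CPM), against 27.5 to 39.7 CPM for COX8A. COX7A1, the heart and muscle form, had 10 to 16 reads (0.244 to 0.378 CPM), against 35.5 to 49.5 CPM for COX7A2. COX6B2 is a testis form whose coding bases were all shared with another gene. It had 7 to 33 reads (0.171 to 0.731 CPM), against 40.3 to 55.7 CPM for COX6B1.

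COX7B2 departed from that pattern. This paralog of COX7B, known for its expression in testis, had 151 to 247 reads per library. Its CPM were 4.39, 5.12 and 3.50 in the control libraries and 5.87, 3.27 and 3.96 in those labelled knockdown, so the groups overlapped (log2 fold change 0.0094, SE 0.247). COX7B measured 42.7 to 61.2 CPM. By merged exon length COX7B2 stood at 22.1 ± 4.67 TPM, against 70.4 ± 9.37 TPM for COX7B. Per kb of the longest coding transcript the values were 8.03 CPM for COX7B2 and 115 CPM for COX7B. The size of this gap thus depends on the length used. The 3 genes for the identical mature c subunit of ATP synthase were all expressed, ATP5MC3 at 106 ± 14.0, ATP5MC1 at 88.2 ± 8.99 and ATP5MC2 at 73.8 ± 5.86 TPM, with overlapping ranges between neighbours.

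The comparison of the groups asked whether any subunit gene differed between libraries labelled knockdown and controls. None of the 82 members that passed the filter on low counts was called: 0 of 82 had an adjusted p under 0.05 in edgeR's quasi-likelihood test, beside 0 of all 20250 genes tested (0%), and the smallest adjusted p of a member was 0.999. COX4I2, COX6A2 and COX8C did not pass the filter. DESeq2 also called no member, beside 0.0395% of all genes. At an unadjusted p under 0.05, 8 of 82 members (9.76%) passed, against 4.03% of all genes tested. The fitted fold changes were small and had tight intervals: for 73 of 82 members the 95% interval lay within 1.5-fold in either direction, and for 79 within 2-fold. The other 3, NDUFV2, COX7A1 and COX6B2, each had under 100 reads in every library.

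The fitted values lay mostly on 1 side. Of the 82 members, 67 had a log2 fold change above 0 (81.7%), against 50.8% of all genes tested, and the median was 0.073 against 0.0033 for all genes. In 9 members every library labelled knockdown exceeded every control (11%, against 4.32% of all genes), and in 0 members was the order the other way round (against 4.88%). By complex, the value was above 0 in 29 of 37 genes of complex I (median 0.10), 3 of 4 of complex II (0.026), 7 of 9 of complex III (0.044), 12 of 14 of complex IV (0.11) and 15 of 17 of complex V (0.071). Within complex I, the 7 core subunits had a median of 0.053 and the 30 accessory ones 0.12. In complex V, the 5 subunits of the catalytic F1 part had a median of 0.069, the 3 c-ring genes 0.034 and the other 9, which include the stalk and membrane subunits, 0.075.

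**Figure D2:**
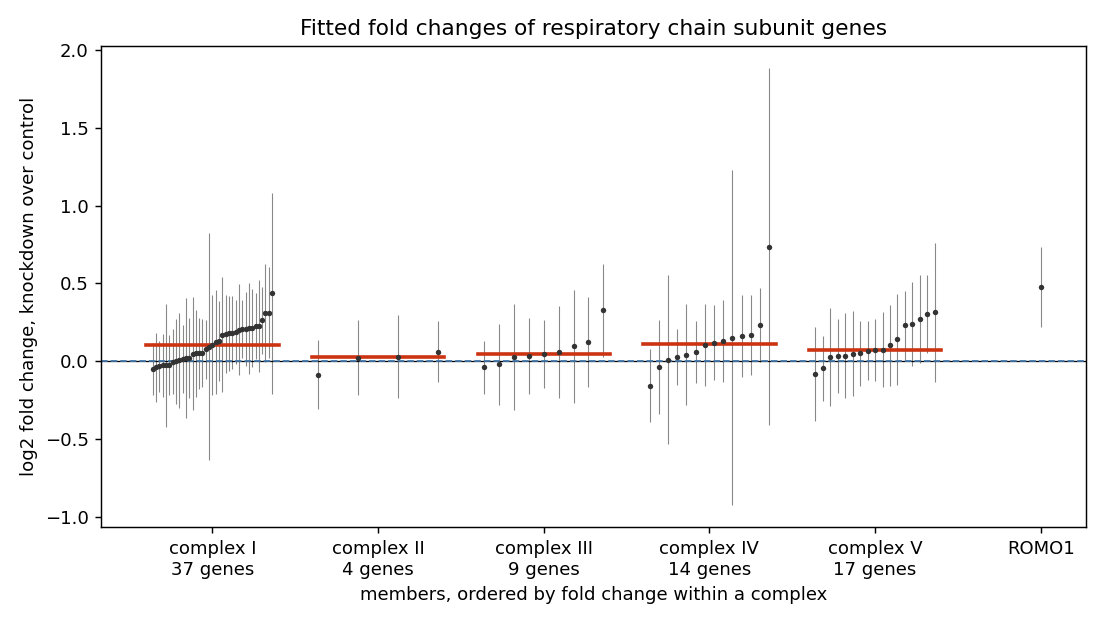
Log2 fold change, labelled knockdown over control, of each tested member with its 95% interval, ordered within a complex; the red line is the median of the complex and the dashed line the median of all 20250 genes. Most points lie above 0 (67 of 82), and ROMO1 is the one shown apart at the right.

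In this excess 2 libraries stood out. In 49 of 82 members (59.8%) control replicate 3 was the lowest of the 6 libraries, against 16.5% of all genes, and in 49 of 82 (59.8%) the library labelled knockdown replicate 2 was the highest, against 19.7%. A profile was taken as the median over members of log2 CPM minus each gene's mean over the 6 libraries. It stood at 0.070, -0.032 and -0.17 in control replicates 1 to 3 and at 0.036, 0.17 and -0.040 in the libraries labelled knockdown. Control replicate 1 was thus higher than replicates 1 and 3 labelled knockdown. The groups overlapped.

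Leaving out control replicate 3, 52 of 82 members (63.4%) were above 0, against 51.5% of all genes in that fit, with a median of 0.021. Leaving out knockdown replicate 2 instead, the count was 51 of 82 (62.2%), against 48.8%, with a median of 0.032. With both left out, 35 of 82 (42.7%) were above 0, against 49.5% of all genes, and the median was -0.028. The same fit gave medians of 0.0079 for complex I, -0.076 for complex II, -0.11 for complex III, -0.041 for complex IV and -0.020 for complex V. This last fit was chosen after the data were seen and compares 2 libraries with 2. The libraries left out were picked as most often lowest and most often highest in these same members. A fall in the number above 0 was thus built in, and what the excess rests on was not tested.

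Complexes I, IV and V shared this outline, and complexes II and III each departed from it in 1 library. Control replicate 3 was the lowest library of the profile in complexes I, III, IV and V, at -0.17, -0.22, -0.24 and -0.16. In complex II it stood at -0.055, above the third library labelled knockdown at -0.10. Knockdown replicate 2 was highest in complexes I, II, IV and V, at 0.16, 0.12, 0.19 and 0.18. In complex III it stood at 0.14, below control replicate 1 at 0.15. As plain sums, complex V took 1562, 1315 and 1273 CPM in the controls and 1355, 1597 and 1334 CPM in the libraries labelled knockdown. Complex IV took 846, 771 and 684 against 783, 906 and 770 CPM. In both complexes the groups overlapped.

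The 13 subunits encoded in the mitochondrial DNA did not share this order. Of these, 10 were lowest in knockdown replicate 2, the library where most nuclear members were highest, and 11 were highest in knockdown replicate 3. Their profile was 0.0063, 0.072 and -0.0019 in the controls and -0.093, -0.17 and 0.14 in the libraries labelled knockdown. MT-CO1, the catalytic subunit of complex IV, measured 13342, 13535 and 13593 CPM in the controls and 12725, 11448 and 13883 CPM in the libraries labelled knockdown. COX7C, a nuclear partner in the same complex, measured 175, 158 and 142 CPM against 175, 211 and 172 CPM. In the replicate 2 labelled knockdown the mitochondrial gene was thus at its lowest and the nuclear gene at its highest. None of the 13 was called (adjusted p, edgeR), 0 had an unadjusted p under 0.05, 2 were above 0, and their median was -0.016.

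Genes for cytosolic ribosomal proteins lay to the same side as the members, but differed from them in the highest library. Control replicate 3 was the lowest library in 71 of 82 tested genes, but 43 were highest in knockdown replicate 1 and 19 in knockdown replicate 2. Of these 82 genes, 69 were above 0 (84.1%, beside 81.7% of the members), with a median of 0.10. None was called, and 9 had an unadjusted p under 0.05 in edgeR, against 4.03% of all genes tested. In 14 every library labelled knockdown exceeded every control (4.32% of all genes), and in 0 was the order reversed (4.88% of all genes). Fibroblast markers were mixed in knockdown replicate 2. Of the 5 tested, 4 were highest there, but COL3A1 and PDGFRB only narrowly, PDGFRB at 0.801 against 0.783 CPM in knockdown replicate 3. The remaining tested marker, DCN, was lowest there, at 0.0866 CPM against 0.268 to 2.32 CPM in the other libraries. The 7 listed summed to 623 CPM there, against 343 and 427 CPM in the others labelled knockdown and 331 to 408 CPM in controls. COL1A1 made up most of this sum, and THY1 had reads only in control replicate 3, at 0.0352 CPM. The part of the fibroblast markers in the result was not tested.

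**Figure D3:**
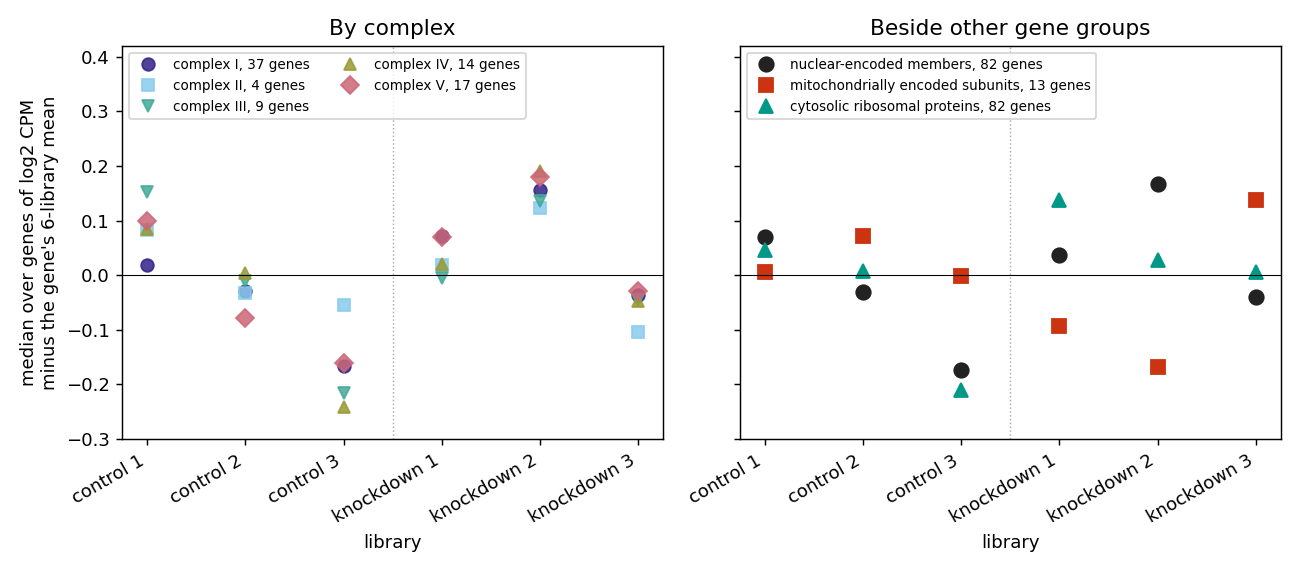
Median over genes of log2 CPM minus the gene's mean over 6 libraries, for each library: by complex (left) and for nuclear-encoded members, mitochondrially encoded subunits and cytosolic ribosomal proteins (right). Nuclear-encoded members are lowest in control 3 (-0.17) and highest in the library labelled knockdown 2 (0.17), where mitochondrially encoded subunits are lowest (-0.17).

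Gene length moved with the direction. All 12 tested members with under 1000 merged exon bases were above 0, with a median of 0.17, against 0.028 for all genes of that length. The 23 members of 4000 bases or more had a median of 0.033, against -0.012 for all such genes. In the bins from 1000 to 2000 and from 2000 to 4000 bases the members had medians of 0.098 and 0.10, against 0.052 and 0.023. With an offset for gene length in the fit, 64 of the 82 members were above 0 and the median was 0.059.

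ROMO1 had the lowest p of all members. This gene (chromosome 20, 35699272 to 35700984, hg38) measured 33.1, 31.5 and 25.2 CPM in the controls and 41.2, 45.2 and 38.7 CPM in the libraries labelled knockdown. All 3 of the latter exceeded all controls. The log2 fold change was 0.48 (SE 0.116, unadjusted p = 0.00177), and the adjusted p was 0.999 in edgeR's quasi-likelihood test. With no filter on low counts the same test called it (adjusted p = 0.0149, log2 fold change 0.48), the only member among 84 so called, beside 0.19% of all genes in that fit. Without control replicate 3 and knockdown replicate 2 the log2 fold change was 0.30, with an adjusted p of 0.664 in edgeR. Of the exon bases of ROMO1, 12% lie under other genes, mainly NFS1, and none of its coding bases do.

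In complex I the lowest p belonged to NDUFA3, NDUFS8, NDUFC1 and NDUFB10. NDUFA3, an accessory subunit, measured 31.8, 31.5 and 26.7 CPM in the controls and 36.6, 36.4 and 34.9 CPM in the libraries labelled knockdown, with no overlap (log2 fold change 0.26, SE 0.0974). NDUFS8, a core subunit that carries iron-sulphur clusters, measured 62.6, 65.4 and 60.8 against 72.8, 78.2 and 66.8 CPM (0.21, SE 0.0857). The lowest of its libraries labelled knockdown lay just above the highest control. NDUFC1, an accessory membrane subunit, measured 12.6, 13.7 and 10.8 against 15.8, 16.3 and 14.0 CPM (0.31, SE 0.133), and 31.5% of its exon bases lie under other genes, chiefly NAA15. NDUFB10, an accessory subunit of the membrane arm, measured 40.1, 37.8 and 32.9 against 42.9, 45.2 and 41.5 CPM (0.23, SE 0.0971). Control replicate 3 was the lowest library for all 4. The unadjusted p ranged from 0.0214 to 0.0399, and each adjusted p was 0.999 in edgeR.

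NDUFV2, the lowest of complex I by TPM, also did not overlap between groups. It measured 0.878, 1.37 and 1.48 CPM in the controls and 1.61, 1.49 and 1.96 CPM in the libraries labelled knockdown (log2 fold change 0.44, SE 0.292, unadjusted p = 0.164, adjusted p = 0.999 in edgeR). The highest control, with 84 reads, and the lowest library labelled knockdown, with 69, lay next to each other after scaling. NDUFA2 was the sixth non-overlapping gene of complex I and is named only to complete the count, after its values were seen.

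In the 4 complex II genes the groups overlapped. SDHA measured 17.4, 19.2 and 15.2 CPM in the controls and 18.5, 18.0 and 16.4 CPM in the libraries labelled knockdown. SDHB measured 62.1, 55.7 and 55.2 against 59.9, 64.1 and 56.6 CPM. SDHC measured 80.4, 64.8 and 71.6 against 73.1, 82.2 and 64.9 CPM. In each of these 3 the libraries labelled knockdown lay largely within the range of the controls. SDHD measured 32.2, 30.5 and 31.1 against 27.4, 33.0 and 27.8 CPM, with replicates 1 and 3 labelled knockdown below all controls and replicate 2 above them. Their 95% intervals on the log2 scale ran from -0.309 (SDHD) to 0.297 (SDHA).

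In complex III, UQCRQ, a small accessory subunit, had the lowest p. It measured 29, 24.0 and 19.6 CPM in the controls and 29.5, 31.9 and 29.5 CPM in the libraries labelled knockdown (log2 fold change 0.33, SE 0.134, unadjusted p = 0.0339, adjusted p = 0.999 in edgeR). The groups did not overlap, but control replicate 1 lay close to 2 of the libraries labelled knockdown and the other controls lay well below. UQCRFS1, the Rieske iron-sulphur subunit, measured 43.0, 32.8 and 36.1 against 41.5, 46.0 and 34.3 CPM and overlapped. UQCR11 and UQCRC2, a core subunit, had log2 fold changes of 0.096 and -0.040.

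In complex IV no member separated the groups. COX7C, the most abundant member there and a small accessory subunit, had the lowest p (log2 fold change 0.23, SE 0.109, unadjusted p = 0.0554, adjusted p = 0.999 in edgeR). COX5B, a subunit on the matrix side, measured 63.8, 56.7 and 50.6 CPM in the controls and 59.0, 74.0 and 59.1 CPM in the libraries labelled knockdown (0.17, SE 0.116). COX6A1 went the other way, with 41.8, 39.1 and 33.0 against 32.4, 35.8 and 34.0 CPM (-0.16, SE 0.106), the lowest log2 fold change of all 82 members. Control replicate 3 fell within the range of the libraries labelled knockdown, and the other controls lay above it. COX6B2 had the highest value of all members, 0.74, with an SE of 0.521 at 7 to 33 reads per library.

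In complex V, ATP5F1D, the delta subunit of the F1 part, measured 36.8, 37.7 and 31.0 CPM in the controls and 43.2, 41.9 and 38.7 CPM in the libraries labelled knockdown, without overlap (log2 fold change 0.23, SE 0.101). ATP5F1E, the epsilon subunit, measured 102, 87.8 and 72.6 against 103, 118 and 96.8 CPM (0.27, SE 0.126) and overlapped through control replicate 1. ATP5MJ, a small membrane subunit, measured 38.2, 32.5 and 34.2 against 44.4, 48.1 and 36.9 CPM (0.30, SE 0.113). Here the third library labelled knockdown fell within the range of the controls. ATP5PF, a subunit of the peripheral stalk, measured 33.5, 26.7 and 26.5 against 33.6, 38.1 and 30.7 CPM (0.24, SE 0.122), and 37.3% of its exon bases lie under other genes, mainly GABPA. ATP5F1B went slightly the other way, with 459, 380 and 355 against 328, 448 and 353 CPM (-0.081, SE 0.136). All adjusted p values were 0.999 in edgeR.

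**Figure D4:**
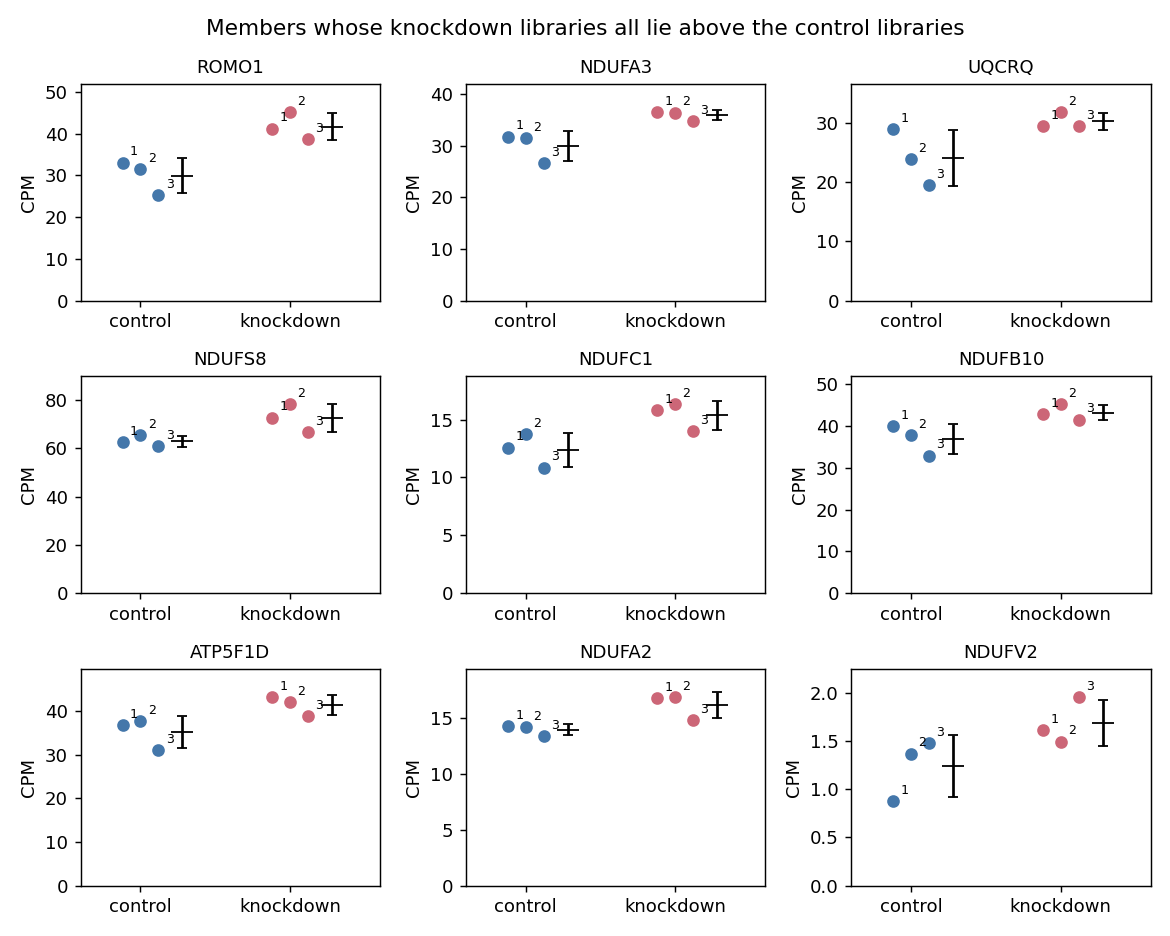
CPM in each library (points, numbered by replicate) with the group mean and SD beside them (n = 3) for the 9 members in which every library labelled knockdown exceeds every control. In ROMO1, the first panel, controls reach 33.1 CPM and the lowest library labelled knockdown stands at 38.7 CPM.

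The genes that build and supply the chain were set beside its subunits, from lists drawn up by function. None of 57 assembly factors was called (adjusted p, edgeR), 0 had an unadjusted p under 0.05, 34 were above 0 and their median was 0.029. Those of complex I (16 factors) had a median of 0.058, of complex II (4) 0.13, of complex III (6) 0.017, of complex IV (26) 0.017 and of complex V (5) -0.026. In 0 of the 57 factors did every library labelled knockdown exceed every control, against 4.32% of all genes tested. In 1, the complex IV factor PET100, the order was reversed, against 4.88%. PET100 measured 6.75, 7.78 and 6.26 CPM in the controls and 5.74, 5.91 and 6.24 CPM in the libraries labelled knockdown. Its log2 fold change was -0.22 (SE 0.159), and it was named after its values were seen. Of 13 genes for cytochrome c and coenzyme Q synthesis, 7 were above 0, none was called and 1 had an unadjusted p under 0.05 (4.03% of all genes tested). COQ6, a hydroxylase of coenzyme Q synthesis, was that gene. It was also the only 1 of the 13 without overlap between groups, against 4.32% of all genes tested with the same order. COQ6 measured 11, 10.7 and 12 CPM in the controls and 13.8, 14.1 and 13.5 CPM in the libraries labelled knockdown (log2 fold change 0.30, SE 0.120, adjusted p = 0.999 in edgeR). COQ6 was named after its values were seen.

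The regulators of these genes had small fitted differences. Of 11 tested genes for biogenesis control 7 were above 0, with a median of 0.035, none called and 0 at an unadjusted p under 0.05. In 2 of the 11, YY1 and POLRMT, the RNA polymerase of mitochondria, every library labelled knockdown exceeded every control, against 4.32% of all genes tested. In 0 was the order reversed, against 4.88%. POLRMT measured 54.5, 56.2 and 53.8 CPM in the controls and 58.1, 58.4 and 59.8 CPM in the libraries labelled knockdown, and YY1 160.0, 166 and 163 against 180, 167 and 167 CPM. NRF1 had a log2 fold change of 0.052 (SE 0.089), GABPA, a subunit of GABP, -0.10 (SE 0.084), YY1 0.073 (SE 0.078) and TFAM, the packaging factor of mitochondrial DNA, 0.035 (SE 0.088). PPARGC1A, the coactivator PGC-1 alpha, was at 0 to 0.346 CPM and did not pass the filter. Of the 4 subunit or related genes that the symbol rule did not catch, none was called and 0 had an unadjusted p under 0.05. NDUFAB1, the acyl carrier protein of complex I, measured 33.1, 29.3 and 28.8 CPM in the controls and 35.8, 34.2 and 33.8 CPM in the libraries labelled knockdown, without overlap (log2 fold change 0.19, SE 0.0933, adjusted p = 0.999 in edgeR). ATP5IF1, the inhibitor of ATP synthase, DMAC2L and NDUFA4L2 overlapped between groups, with log2 fold changes of 0.053, 0.075 and -0.40.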

How the data were processed

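Per the file headers, the authors counted reads per gene with featureCounts 2.0.6 on hg38 with GENCODE 44, requiring both mates to align, dropping chimeric pairs, without a strand option and without counting pairs as 1 fragment; the deposited values are raw counts. No source used here names the aligner. The labels describe the library kit in 2 ways, 1 of them stranded. Counts were fitted over all genes with edgeR 4.0.16 (filterByExpr, TMM scaling, robust quasi-likelihood test, Benjamini-Hochberg adjustment over 20250 genes, threshold 0.05; R 4.3.3). CPM are relative to the TMM-scaled library size. TPM used the merged exon length of the table. A standard error is the fold change divided by the square root of F, and the script was tested on simulated data. DESeq2 1.42.0, limma 3.58.1, other scalings and filters, a gene-length offset and leaving out each library were alternatives. Replicates are stated to be independent, but how they were kept apart is not, so p-values measure the spread between these libraries. Intervals and the limit of 3 reads cover counting or model error only. Coding overlap used GENCODE 29 transcripts and the exon coordinates of the table.

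The members and lists were chosen with earlier results of these data known. Genes named were ROMO1, the 4 lowest p per complex, the most and least abundant per complex, all SDH genes, paired isoforms, any member called under an alternative, and up to 6 members without overlap. Other genes, among them NDUFA10, UQCRH and NDUFV1, the genes of the pathway lists and the cell type markers given with values, were picked after their values were seen. Same-numbered libraries correlated at 0.055, -0.087 and 0.20 after removing group means, so the numbers were not taken as pairs.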

Additional observations from a re-analysis of the deposited data

How the results depend on the processing

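No member was called under any alternative except with no filter on low counts, where 1 was called, ROMO1. With a replicate block, 0 members were called, 65 of 82 were above 0 and the median log2 fold change was 0.075. Leaving out 1 library at a time, calls stayed at 0, between 51 and 71 members were above 0, and the median lay between 0.021 and 0.16; it lay between 0.040 and 0.16 in complex I, -0.031 and 0.092 in complex II, -0.013 and 0.13 in complex III, 0.015 and 0.17 in complex IV, and 0.031 and 0.15 in complex V. SDHC turned to -0.015 under the gene-length offset. Over single left-out libraries SDHC ranged from -0.071 to 0.11, SDHA from -0.057 to 0.11 and UQCR11 from -0.023 to 0.16. Leaving out control replicate 3 and knockdown replicate 2 together, an alternative chosen after seeing the data, put 35 members above 0, with medians of 0.0079 (complex I), -0.076 (complex II), -0.11 (complex III) and -0.041 (complex IV); COX5B turned to -0.032, SDHA to -0.075, SDHB to -0.020, SDHC to -0.077 and UQCRFS1 to -0.0033. Without members whose coding bases were at least 50% shared, also chosen later, 54 of 65 were above 0 and the median was 0.076. Depth limited NDUFV2, COX7A1 and COX6B2, whose intervals at under 100 reads per library reached past 2-fold.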
